A study of Mus musculus with 4 samples.

Results

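Glycolysis and the genes induced by low oxygen were examined in mouse macrophages sorted from brain tumours, with and without treatment with MK-8931. The set holds 35 genes, taken by gene symbol from a deposited table of 54532 genes. It was chosen by function, and 20 members are glycolytic enzymes, their glucose and lactate transporters and a control enzyme, while the other 15 are genes of the hypoxia response outside glycolysis. All 35 members passed the filter on low counts.

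The libraries are bulk RNA sequencing of tumour-associated macrophages, sorted from glioblastoma (GBM) xenografts as live CD45-positive, CD11b-positive and Gr1-negative cells. There were 2 control and 2 MK-8931 libraries. MK-8931 (verubecestat) inhibits BACE1, the beta-secretase. The strain entry of both groups reads "GBM mice", and no age, dose or genotype is given. The treatment and RNA entries of the labels name glioma stem cells treated for 3 days with the agent or a vehicle, whereas the cell type entry names sorted macrophages, so the route of treatment is not settled. The labels do not say that libraries came from separate animals, and the p-values then measure only the spread between these libraries, which may be technical.

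Glycolysis splits glucose into pyruvate in the cytosol and yields ATP without oxygen, and lactate dehydrogenase regenerates the NAD+ that the pathway consumes. In low oxygen the transcription factor HIF-1, made of an oxygen-labile alpha subunit and the stable subunit ARNT, accumulates because prolyl hydroxylases no longer mark the alpha subunit for destruction. HIF-1 then binds short response elements beside genes of glucose uptake, glycolysis, mitophagy, angiogenesis and collagen modification. Macrophages in hypoxic and inflamed tissue are known for high glycolytic activity.

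The response element's core, ACGTG or GCGTG, was searched on both strands of the 250 bases before the transcription start in RefSeq's GRCm38.p6 promoters, which held 32 of the 35 members (not Ndrg1, Plod2 or Bhlhe40). Either core was present at the first-listed start of 12 of 12 hypoxia members and 14 of 20 glycolytic members. It was present in 56.1% of 10078 tested genes with a promoter and 38.6% of all 27025 promoters. The median GC content of these windows was 68.6% in the hypoxia members, 58.8% in the glycolytic members and 59.6% in the tested genes, and both cores hold a CpG. ACGTG alone was found in 66.7% of hypoxia members, 45.0% of glycolytic members and 21.7% of tested genes. GCGTG was found in 10 of 12 hypoxia members, 7 of 20 glycolytic members and 45.0% of tested genes. It was thus less frequent in glycolytic members than in tested genes. The E-box CACGTG, which contains ACGTG on both strands, was found in 16.7%, 10.0% and 8.50% respectively. Below are 4 of these windows, from base 250 to base 11 before the start, for the members with the 2 largest fitted differences in each direction among those with a single listed start and at most 30 annotated exon bases in the window. Capitals mark either core on either strand. The windows are chr12:54203885-54204124 (minus strand) for Egln3, chr4:119108495-119108734 (plus strand) for Slc2a1, chr7:138909517-138909756 (minus strand) for Bnip3 and chr8:45999861-46000100 (minus strand) for Ankrd37.
Egln3: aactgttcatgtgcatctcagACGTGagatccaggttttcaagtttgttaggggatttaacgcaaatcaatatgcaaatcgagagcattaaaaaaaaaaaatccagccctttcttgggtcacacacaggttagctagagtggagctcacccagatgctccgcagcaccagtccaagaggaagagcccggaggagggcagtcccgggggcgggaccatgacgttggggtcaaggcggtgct
Slc2a1: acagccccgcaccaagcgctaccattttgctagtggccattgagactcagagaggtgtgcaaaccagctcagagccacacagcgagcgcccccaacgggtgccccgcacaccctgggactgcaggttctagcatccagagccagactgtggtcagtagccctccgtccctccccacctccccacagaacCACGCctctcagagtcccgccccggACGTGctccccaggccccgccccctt
Bnip3: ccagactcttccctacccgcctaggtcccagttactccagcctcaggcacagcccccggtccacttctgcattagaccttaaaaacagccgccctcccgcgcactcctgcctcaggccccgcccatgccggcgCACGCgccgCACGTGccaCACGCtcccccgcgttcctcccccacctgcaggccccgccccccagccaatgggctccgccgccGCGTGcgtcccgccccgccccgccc
Ankrd37: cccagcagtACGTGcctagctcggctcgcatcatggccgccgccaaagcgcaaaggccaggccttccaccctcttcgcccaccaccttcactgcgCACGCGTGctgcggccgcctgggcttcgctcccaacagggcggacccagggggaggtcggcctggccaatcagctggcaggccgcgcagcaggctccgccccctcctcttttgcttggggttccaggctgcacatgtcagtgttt
Bnip3 carries 2 ACGTG and 3 GCGTG matches in the stretch shown, whereas Egln3 carries 1 ACGTG match and no GCGTG match. The 2 ACGTG matches of Bnip3 are the 2 strands of 1 CACGTG. Slc2a1 has 1 match of each core close to the start. Ankrd37 has 1 ACGTG and 2 GCGTG matches in the stretch shown, the latter overlapping in an 8-base palindrome. Either core was in the windows of 26 of the 32 members, so its presence in the 4 shown says nothing about their directions. A match is a description of the letters and was not measured as binding.

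Library totals ranged from 18257930 to 20179875 counts, and between 18258 and 20075 genes had a count. Across the 13932 genes tested with edgeR's quasi-likelihood test, 120 rose and 19 fell at an adjusted p under 0.05 (0.861% and 0.136%, 0.998% in either direction). That background depends on 1 library: without control 1, 520 genes rose and 243 fell. Macrophage markers were abundant in every library, with summed values of 6609 and 6615 CPM (counts scaled to library size) in controls against 7041 and 6670 CPM after treatment. Of the 9 macrophage markers, 1 rose and 0 fell with edgeR, 5 had an unadjusted p under 0.05, and DESeq2 and limma-voom each called 2. The marker that rose was the integrin Itgam (CD11b), with a log2 fold change of 0.75 (edgeR adjusted p = 0.0485). The others at an unadjusted p under 0.05 were Mrc1 at 0.42, Ptprc at 0.37, Mertk at −0.38 and Cd163 at −0.64. Neutrophil markers differed between the groups: 11 of the 12 tested of 17 listed rose, none fell, and their summed level was 122 and 108 CPM in controls against 676 and 1101 CPM. Elane was at 0 in all 4 libraries. Ly6g was at 0 in both controls and in MK-8931 1, with 14 counts (0.76 CPM) in MK-8931 2. Elane, Ly6g, Ngp, Camp and Mpo did not pass the filter on low counts and were not tested. Monocyte markers also included 6 of 10 that rose, and 9 had fitted values above 0 (median log2 fold change 1.64). Their summed levels were 7013, 6603, 7378 and 6926 CPM in the order control 1, control 2, MK-8931 1, MK-8931 2. Most of each sum was Fn1, at 5697, 5375, 5539 and 5028 CPM in that order (log2 fold change −0.07), so the sums hardly reflect the other markers. Microglia markers summed to 3007, 3577, 2452 and 2704 CPM in that order, and 0 of the 9 tested passed the edgeR threshold, with 5 at an unadjusted p under 0.05, 3 called by DESeq2 and 0 by limma-voom. Endothelial and stromal markers summed to 700, 334, 698 and 1061 CPM. The part of these cell types in the results that follow was not tested. In bulk RNA, fewer cells of a type cannot be told apart from less RNA per cell.

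No glycolytic or hypoxia member passed the threshold. Of the 35 members, 0 rose and 0 fell (edgeR adjusted p from 0.255 to 0.990), 5 had an unadjusted p under 0.05 where 10.8% of all tested genes did, and DESeq2 and limma-voom each called 0. Every member's 95% interval, unadjusted for the number of genes, lay inside a 2-fold change in either direction, and 21 of the 35 lay inside 1.5-fold. An interval inside 2-fold was found for 65.2% of all genes tested and for 95.2% of the 7637 that were at least as abundant as the lowest member. Of those 7637 genes, 0.956% rose and 0.223% fell (1.18% in either direction). The median absolute log2 fold change of the members was 0.20, beside 0.20 over all genes tested and 0.14 over those 7637 genes, where log2 fold change is MK-8931 over control throughout. For 19 of 35 members (54.3%) the CPM of the control and MK-8931 libraries did not overlap, 11 higher and 8 lower with MK-8931. Over all genes tested, 41.2% did not overlap (21.2% higher and 20.0% lower), and 41.6% of the 7637 did not.

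Levels between genes were compared per length, in the authors' FPKM (fragments scaled to gene length and library size). For 34 of the 35 members the gene length equalled all annotated exons merged, which need not be the length of the expressed message. Orders and shares between genes therefore depend on the annotation. The highest members were aldolase A, pyruvate kinase and glyceraldehyde-3-phosphate dehydrogenase. Aldoa, which splits fructose bisphosphate into triose phosphates, stood at 779 and 833 FPKM in controls and 848 and 877 FPKM with MK-8931. Pkm, which makes pyruvate and ATP, stood at 757 and 850 FPKM in controls and 754 and 751 FPKM with MK-8931. Gapdh, the NADH-producing step, was at 772, 806, 802 and 808 FPKM in the same order. These 3 genes overlapped in level, and each had a control mean above that of 99.7% of the genes tested. The next step down was Ldha, which reduces pyruvate to lactate, at 536 and 674 FPKM in controls and 491 and 558 FPKM with MK-8931. Pgk1, the first ATP-producing enzyme, was beside it at 435, 510, 459 and 524 FPKM.

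**Figure D1:**
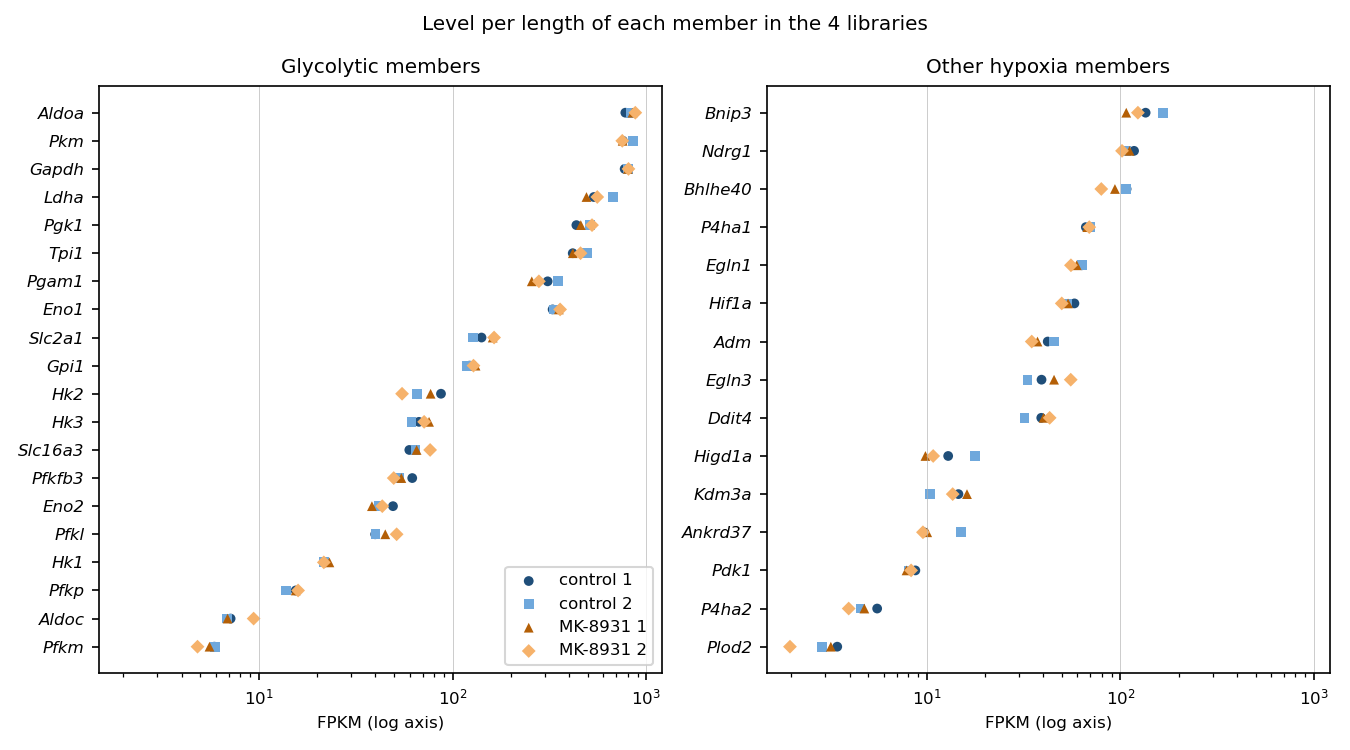
Deposited FPKM (log axis) of the 35 members in each library, ordered by control mean within the glycolytic and hypoxia groups; each point is 1 library. The glycolytic members span Aldoa at 779 to 877 FPKM down to Pfkm at 4.83 to 5.94 FPKM, and control and MK-8931 points lie close together.

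Among hypoxia members, Bnip3, Ndrg1 and Bhlhe40 led and overlapped in level, with control means of 150.5 ± 22.2, 112 ± 7.38 and 107 ± 0.826 FPKM (SD, n = 2). The lowest of all 35 members was Plod2, a collagen lysyl hydroxylase, at 3.46 and 2.88 FPKM in controls and 3.20 and 1.97 FPKM with MK-8931. P4ha2, a collagen prolyl hydroxylase subunit, was at 5.55, 4.55, 4.77 and 3.96 FPKM. Pfkm, the muscle-type phosphofructokinase, was at 5.90, 5.94, 5.57 and 4.83 FPKM. Of these low members, only Pfkm had groups that did not overlap, and its difference was within the error of the fit (log2 fold change −0.18, 95% interval −0.60 to 0.24). In the ordered list by control mean, 10 of the 19 neighbouring glycolytic pairs and 7 of the 14 neighbouring hypoxia pairs overlapped in their library values. In the glycolytic order, the 9 steps without overlap lay below Gapdh, Tpi1, Eno1, Gpi1, Pfkfb3, Pfkl, Hk1, Pfkp and Aldoc.

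The glycolytic members held a nearly constant share of the library. They took 1.95% (control 1) and 1.99% (control 2) of all counts, against 1.99% and 2.05% after treatment. Of the 20, 0 rose and 0 fell (lowest edgeR adjusted p 0.454), 2 had an unadjusted p under 0.05, and DESeq2 and limma-voom each called 0. Fitted differences were above 0 for 12 and below 0 for 8, from −0.29 to 0.29, with a median of 0.06 beside −0.0030 over all genes tested. That median was 0.02 without MK-8931 2. The groups did not overlap for 12 of the 20 members, 9 higher and 3 lower. Over all genes tested, 41.2% did not overlap, 21.2% higher and 20.0% lower.

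At glucose entry, the transporter Slc2a1 (GLUT1; ENSMUSG00000028645, chr4:119108711-119137983, plus strand) had the largest positive difference of the glycolytic members. Its level was 497 and 444 CPM in controls and 569 and 579 CPM after treatment, so both treated libraries were above both controls. The log2 fold change was 0.29 (SE 0.12, 95% interval 0.0042 to 0.57, edgeR adjusted p = 0.454). Hexokinases, which trap glucose in the cell as glucose-6-phosphate, differed among themselves. Hk3, a myeloid-enriched isozyme, had mean levels of 237 ± 16.1 CPM in controls and 273 ± 11.0 CPM after treatment (SD, n = 2). Hk2, the hypoxia-inducible isozyme, overlapped at 523, 389, 463 and 330 CPM. The libraries of each group differed by more than the group means did. Hk1, the housekeeping isozyme, lay between 184 and 199 CPM throughout. Gpi1, which isomerises glucose-6-phosphate, was at 777.5 ± 23.6 CPM in controls and 844 ± 14.1 CPM after treatment, without overlap.

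Phosphofructokinase commits the sugar to glycolysis, and its liver-type subunit Pfkl was the second largest positive difference of the glycolytic members. Pfkl was at 268 and 266 CPM in controls and 302 and 346 CPM after treatment, again without overlap. The log2 fold change was 0.28 (SE 0.13, 95% interval −0.0080 to 0.57, edgeR adjusted p = 0.484). Pfkp, the platelet type, was at 209, 185, 209 and 216 CPM. It shares 748 exonic bases with Pitrm1 on the opposite strand, and reads there cannot be assigned without strand. Pfkfb3, which makes the phosphofructokinase activator fructose-2,6-bisphosphate, overlapped at 435 ± 51.1 and 396 ± 25.0 CPM (SD, n = 2).

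After the sugar is split, the most abundant enzymes had fitted differences near 0. Aldoa had 2280, 2418, 2486 and 2573 CPM, a log2 fold change of 0.11 (95% interval −0.17 to 0.38). Gapdh had 3211, 3322, 3339 and 3368 CPM, and its groups were apart by CPM but overlapped by FPKM, with a log2 fold change of 0.04 (95% interval −0.23 to 0.31). Pkm had 3806, 4241, 3799 and 3786 CPM, a log2 fold change of −0.09 (95% interval −0.37 to 0.20). A gene total does not separate the M1 and M2 forms of Pkm. Pkm also shares 767 exonic bases with Gm49759 on the same strand, whose counts were 2.32% of those of Pkm. Pgk1 overlapped at 982, 1142, 1037 and 1186 CPM. Tpi1, which interconverts the triose phosphates, likewise overlapped at 1255 ± 143 and 1213 ± 79.3 CPM. The minor isozymes Aldoc and Eno2, both best known from the brain, ranged over 22.2 to 30.9 CPM and 182 to 233 CPM with overlapping groups.

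Pgam1, which moves the phosphate of phosphoglycerate, was the glycolytic member with the largest negative difference (ENSMUSG00000011752, chr19:41911871-41918664, plus strand). Its level was 570 and 641 CPM in controls and 473 and 515 CPM after treatment, so both treated libraries were below both controls. The log2 fold change was −0.29 (SE 0.13, 95% interval −0.58 to −0.0033, edgeR adjusted p = 0.456). With the reads of its pseudogene copy Pgam1-ps2 added it was −0.30. Eno1, the next enzyme, had 1779 ± 4.26 CPM in controls and 1930 ± 22.6 CPM after treatment (SD, n = 2). That is a log2 fold change of 0.12 (edgeR adjusted p = 0.810). A near-identical copy, Eno1b, held from 15.0% to 17.0% of the reads of both in each library, and their sum gave 0.09.

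At the end of the pathway, lactate dehydrogenase A and the lactate exporter had fitted values of opposite sign. Ldha was at 1784, 2226, 1636 and 1862 CPM with overlapping groups, and its log2 fold change was −0.20 (SE 0.15, 95% interval −0.53 to 0.14, edgeR adjusted p = 0.727). Control 2 was the highest library and MK-8931 1 the lowest. Slc16a3 (MCT4), which carries lactate out of the cell, was at 330 ± 15.0 CPM in controls and 380 ± 43.3 CPM after treatment (SD, n = 2), without overlap. Its log2 fold change was 0.20 (95% interval −0.10 to 0.50).

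**Figure D2:**
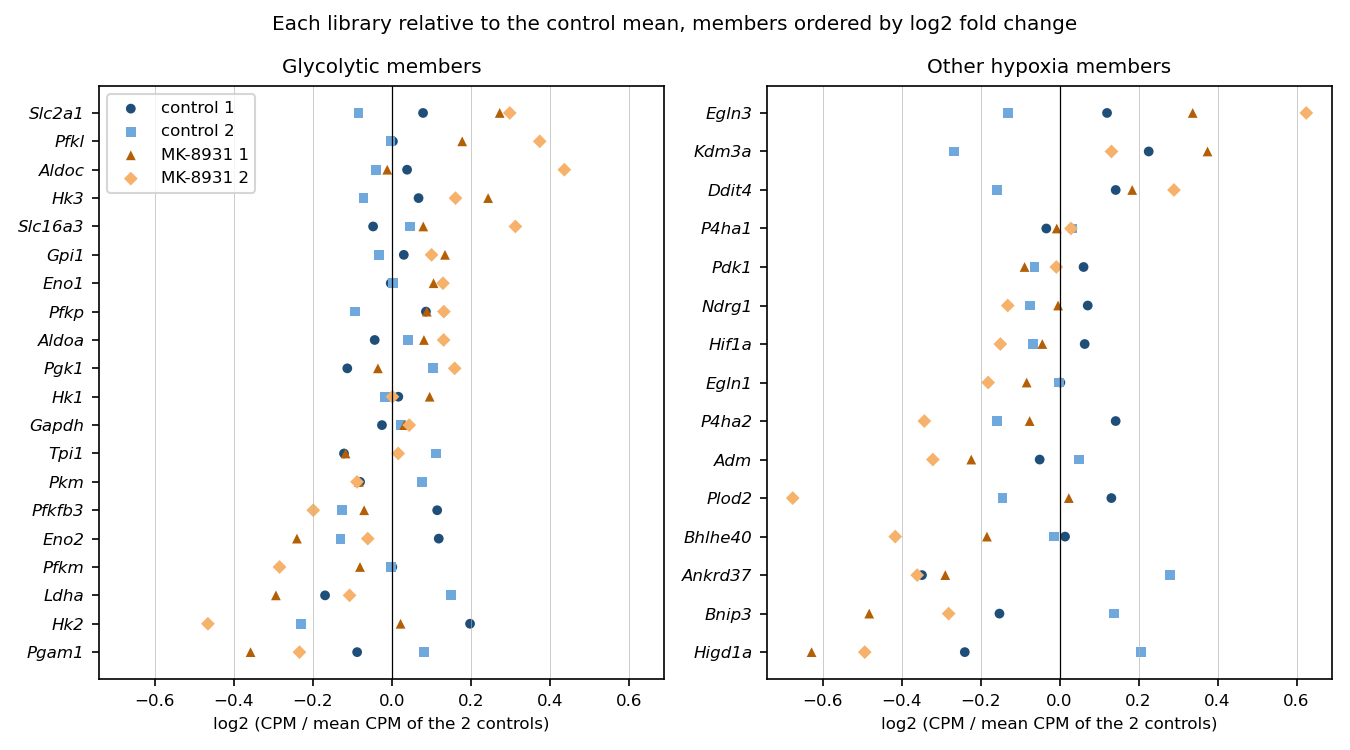
Level of each member in each library relative to the mean of the 2 controls (log2 CPM ratio, 1 point per library). Higd1a, Bnip3 and Adm have both MK-8931 points below both controls, Egln3 and Slc2a1 both above, and Ankrd37, Hk2 and Kdm3a have controls far apart.

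Isozyme composition was compared as each gene's share of summed FPKM in 6 families, counting only family genes that are members of the set. The exact two-sided permutation test used cannot go below p = 0.333 with 2 libraries against 2. Hk2 made up 49.5% and 44.0% of hexokinase in controls and 43.8% and 37.1% with MK-8931, whereas Hk3 made up 38.1% and 41.4% against 43.0% and 48.2%. By this measure Hk2 and Hk3 were the main hexokinase messages, and in the MK-8931 2 library Hk3 exceeded Hk2. By CPM, Hk2 stayed above Hk3 in that library, at 330 against 265 CPM, so their order there depended on the lengths used. These were 5969 bases for Hk2, 3682 for Hk3 and 8532 for Hk1. Pfkl made up 66.0% ± 1.34 of phosphofructokinase in controls and 69.7% ± 2.22 with MK-8931 (SD, n = 2, exact permutation p = 0.333). Aldoa was at least 98.9% of the Aldoa and Aldoc sum in every library. Eno1 was at least 87.0% of the Eno1 and Eno2 sum, from which the copy Eno1b and the muscle gene Eno3 were left out. P4ha1 was 92.3% to 94.6% of the collagen prolyl hydroxylase alpha pair. The widest difference was in the oxygen-sensing hydroxylases: Egln3 made up 38.3% and 34.3% of the Egln1 and Egln3 sum in controls and 43.3% and 49.9% with MK-8931 (difference 10.4 percentage points, exact permutation p = 0.333). The groups did not overlap for Hk2, Hk3, Pfkl, Pfkm, both enolases and both Egln genes, and no share could pass the threshold with 2 libraries a group. The 2 shares of a 2-gene family mirror each other, so the enolases are 1 comparison and the Egln genes 1.

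**Figure D3:**
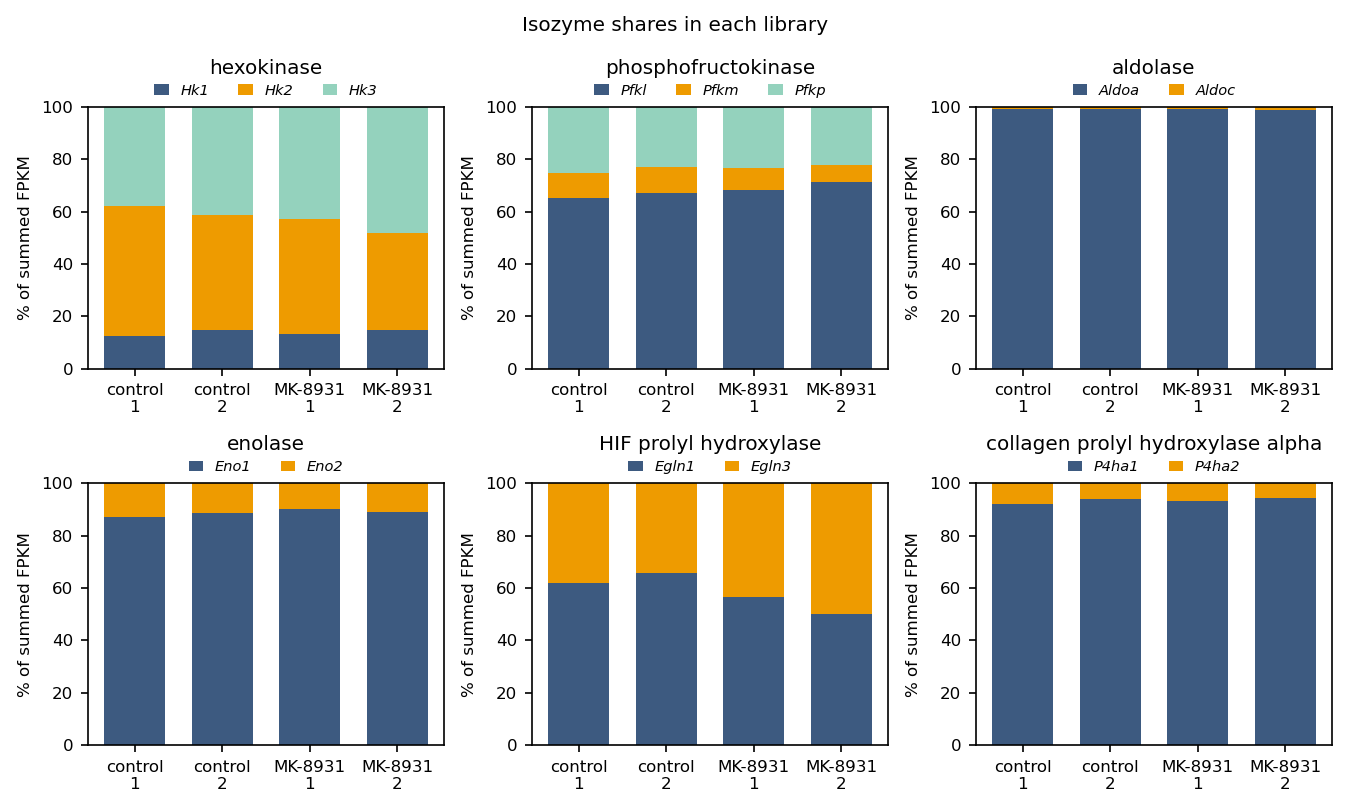
Share of each isozyme in the summed FPKM of its family's genes in the set, in percent, for each library (Egln2, Eno1b and Eno3 are left out). The Egln3 share is 34.3% to 38.3% in controls and 43.3% to 49.9% with MK-8931, and the Hk3 share is 38.1% to 41.4% in controls and 43.0% to 48.2% with MK-8931.

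The hypoxia members gave a mixed picture in which the oxygen sensor Egln3 had higher values and the mitochondrial genes Higd1a and Bnip3 lower values with MK-8931. Of the 15, 0 rose and 0 fell (lowest edgeR adjusted p 0.255), 3 had an unadjusted p under 0.05, and DESeq2 and limma-voom each called 0. Fitted differences were below 0 for 11 and above 0 for 4, from −0.56 to 0.49. Their median was −0.13 beside −0.0030 over all genes tested, and −0.05 without control 1. The groups did not overlap for 7 of the 15 members, 2 higher and 5 lower, close to the 41.2% of all genes tested (21.2% higher and 20.0% lower). Together these genes took 0.301% and 0.281% of counts in controls and 0.281% and 0.268% with MK-8931.

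Hif1a itself, the oxygen-labile subunit, had 343, 314, 319 and 296 CPM, and its log2 fold change was −0.10 (95% interval −0.38 to 0.19). Egln3 (ENSMUSG00000035105, chr12:54178981-54203860, minus strand), a prolyl hydroxylase that is itself a HIF target, had 105 and 88.0 CPM in controls and 122 and 149 CPM after treatment. Both treated libraries were above both controls, and the log2 fold change was 0.49 (SE 0.15, 95% interval 0.14 to 0.84, edgeR adjusted p = 0.255). Egln1, the main HIF prolyl hydroxylase, was at 228 ± 0.439 CPM in controls and 208 ± 9.95 CPM after treatment (SD, n = 2). That is a log2 fold change of −0.13. Kdm3a, a histone demethylase induced by HIF, overlapped at 121, 85.7, 134 and 113 CPM.

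The lowest fitted values belonged to 2 mitochondrial genes. Higd1a (ENSMUSG00000038412, chr9:121848563-121858362, minus strand), a small protein of the inner mitochondrial membrane, had 39.5 and 53.8 CPM in controls and 30.2 and 33.1 CPM after treatment. Its log2 fold change was −0.56 (SE 0.18, 95% interval −0.98 to −0.14, edgeR adjusted p = 0.276). Bnip3 (ENSMUSG00000078566, chr7:138890836-138909519, minus strand), a mitophagy receptor, had 307 and 376 CPM in controls and 244 and 281 CPM after treatment. Both treated libraries lay below both controls for both genes, but the controls differed by 0.45 and 0.29 log2 units between themselves. The Bnip3 log2 fold change was −0.38 (SE 0.14, 95% interval −0.71 to −0.05, edgeR adjusted p = 0.375). Pdk1, which turns off pyruvate dehydrogenase, overlapped at 65.6 ± 3.99 and 63.4 ± 2.50 CPM (SD, n = 2). Ddit4, an inhibitor of mTORC1, was at 62.4 ± 9.13 CPM in controls and 73.6 ± 3.81 CPM after treatment, without overlap.

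Leaving out 1 library moved the fitted values of Bnip3, Higd1a and Egln3 but did not change their directions. Control 1 was the lower control for Bnip3 and Higd1a and the higher for Egln3. With each library left out in turn, the log2 fold change ranged from −0.52 to −0.23 for Bnip3. It ranged from −0.77 to −0.32 for Higd1a and from 0.33 to 0.62 for Egln3. Calls from such fits are not given for single genes, since a group of 1 library has no spread of its own.

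Bhlhe40 (ENSMUSG00000030103, chr6:108660629-108666925, plus strand), a basic helix-loop-helix repressor, had 509 and 499 CPM in controls and 444 and 378 CPM after treatment. Its log2 fold change was −0.30 (SE 0.13, 95% interval −0.59 to 0.0011, edgeR adjusted p = 0.466). Adm, the vasodilator peptide adrenomedullin, had 68.6 and 73.5 CPM in controls and 60.8 and 56.9 CPM after treatment. Both treated libraries were below both controls, with a log2 fold change of −0.27 (SE 0.14, 95% interval −0.59 to 0.04, edgeR adjusted p = 0.555). Ndrg1, a stress-responsive cytoplasmic protein, overlapped at 742 ± 53.1 and 709 ± 44.3 CPM (SD, n = 2). Ankrd37, an ankyrin-repeat protein, had 15.0 and 23.1 CPM in controls and 15.6 and 14.8 CPM after treatment. Its difference rests on the high control 2, since the fitted value was 0.02 without it. Ankrd37 shares 57 exonic bases with Ufsp2 and 349 with Lrp2bp, both on the opposite strand. Ufsp2 counts were 315% and Lrp2bp counts 1.38% of those of Ankrd37. Of the collagen enzymes, P4ha1 was at 281 ± 9.15 and 283 ± 4.99 CPM, with a log2 fold change of 0.01 (95% interval −0.26 to 0.28). P4ha2 and Plod2 had overlapping groups and intervals of −0.62 to 0.21 and −0.87 to 0.31.

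**Figure D4:**
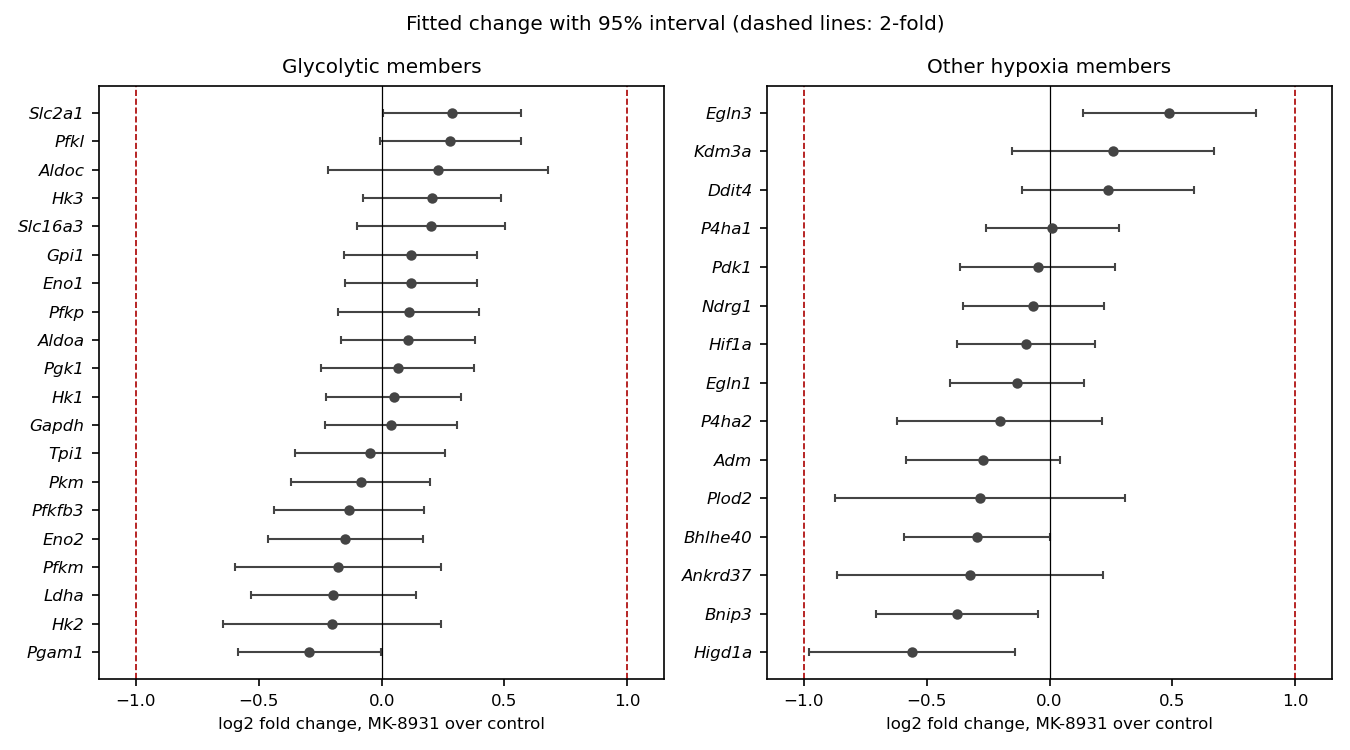
Fitted log2 fold change (MK-8931 over control) of the 35 members with 95% intervals from edgeR, unadjusted for the number of genes. All intervals lie within a 2-fold change, and the intervals of Egln3, Slc2a1, Pgam1, Bnip3 and Higd1a do not reach 0.

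Genes of the same pathways outside the set were counted the same way. Of 21 tested glucose and lactate genes, 10 had fitted values above 0 and 11 below 0. With edgeR 0 passed (1 at an unadjusted p under 0.05), while DESeq2 called 1 and limma-voom 0. The gene called by DESeq2 was Slc2a3 (GLUT3), the high-affinity glucose transporter, at 25.3 and 21.3 CPM in controls and 42.4 and 36.2 CPM after treatment. Its log2 fold change was 0.75 (SE 0.17), with an adjusted p of 0.105 in edgeR and 0.0280 in DESeq2. At 3.21 FPKM in controls it was far below Slc2a1 at 134 FPKM. Eno3, the muscle enolase, was next by p, with a log2 fold change of 0.60 (edgeR adjusted p = 0.492).

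The 8 pentose phosphate genes, which draw glucose-6-phosphate off for NADPH and ribose, all had fitted values above 0. Their median was 0.19, beside −0.0030 over all genes tested. Of the 8, 0 passed with edgeR, DESeq2 or limma-voom, and 1 had an unadjusted p under 0.05. That gene was Rpia, ribose-5-phosphate isomerase, at 23.1, 15.6, 28.4 and 33.3 CPM (log2 fold change 0.67, edgeR adjusted p = 0.271). G6pdx, the entry enzyme, followed at 0.27 (edgeR adjusted p = 0.534). Of 14 pyruvate dehydrogenase and mitochondrial pyruvate genes, 3 had fitted values above 0 and 11 below 0 (median −0.11). Of the 14, 0 passed with the same 3 tools and 2 had an unadjusted p under 0.05. They were Pdp2, an activating phosphatase, at 0.87 (edgeR adjusted p = 0.232), and Pdk4, an inhibiting kinase, at −0.93 (edgeR adjusted p = 0.444).

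Of 12 tested genes of oxygen sensing, 4 had fitted values above 0 and 8 below 0. Of the 12, 0 passed with the 3 tools and 1 had an unadjusted p under 0.05. That was Epas1, the HIF-2 alpha subunit, at 117 and 121 CPM in controls and 97.1 and 65.9 CPM after treatment (log2 fold change −0.54, SE 0.18, edgeR adjusted p = 0.293). Egln2, another HIF prolyl hydroxylase, had 0.35 (edgeR adjusted p = 0.514).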

How the data were processed

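Messenger RNA was measured in 4 libraries, 2 control and 2 MK-8931, grouped by their titles. The authors deposited whole-number counts for each gene, named as counts per the file headers. Their deposited FPKM values and gene lengths stand in further columns. For genes with at least 100 counts, FPKM was checked against count over length and was proportional to it within 1%. The submitters' processing notes name CASAVA and mm9, but 98.3% of the coordinates equalled GRCm38, and those of the files are given. For aligner, counting tool, strand setting and any removal of tumour reads, nothing is stated in the sources used here.

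Counts were filtered with filterByExpr (minimum count 10), TMM-scaled and tested with edgeR 4.0.16 (R 4.3.3; quasi-likelihood F test, two-sided, Benjamini-Hochberg over 13932 genes, threshold 0.05). CPM used TMM library sizes. The floor of 3 counts was between 0.153 and 0.163 CPM. In counts simulated on these libraries (13464 genes tested), recovery was 14 of 81 for genes set to 1.5-fold, 41 of 56 at 2-fold and 61 of 63 at 4-fold. Of the 125 calls, 9 were false. Alternatives were DESeq2 1.42.0, limma-voom 3.58.1, library size alone, no filter, a replicate block, leaving out each library, and summing gene copies (the last chosen after seeing the data). Aldoa stands on 2 rows, and the larger was used. Values in every library are given for members past the threshold, those with non-overlapping groups among the 10 largest differences, and the 5 highest and 3 lowest by control FPKM, and for some others. From other lists, genes past the threshold or else the 2 with the smallest p are named. Members and lists were chosen with earlier results of these data known. A result among further hypoxia-induced genes is not reported here.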

Additional observations from a re-analysis of the deposited data

How the results depend on the processing

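Replicate numbers in the titles were not shown to pair the libraries. Across the genes tested, the replicate 1 minus 2 deviations of control and of MK-8931 had a correlation of 0.197. With the replicate block, which pairs libraries by these numbers, 468 of the 13932 genes tested rose and 275 fell. The main fit gave 120 and 19, so far more genes passed over the whole table with the block. In that fit 1 hypoxia member rose (Egln3, edgeR adjusted p 0.0440) and 2 fell (Bnip3, 0.0259, and Higd1a, 0.0298). Over all genes, 266 rose and 96 fell with DESeq2, 366 and 176 with no filter, and 30 fell with limma-voom. Leaving out 1 library gave 85 to 520 that rose and 10 to 243 that fell, and 0 to 1 hypoxia members that rose and 0 to 2 that fell. No glycolytic member passed under any of these settings. The median of the glycolytic members was 0.0850 with library size alone, 0.0369 with no filter and 0.0153 to 0.0667 with 1 library left out, and that of the hypoxia members was −0.19 to −0.0541 with 1 library left out. Of the 35 members, 26 kept their direction in every setting run. P4ha1 was −0.00967 with no filter. With 1 library left out, values changed sign for Hk1 (−0.00639 to 0.0838), Hk2 (−0.47 to 0.0199), Aldoc (−0.0234 to 0.43), Tpi1 (−0.17 to 0.0715), Pgk1 (−0.0481 to 0.18), Ankrd37 (−0.61 to 0.0233), Pdk1 (−0.11 to 0.00652), P4ha1 (−0.0308 to 0.0439) and Plod2 (−0.68 to 0.0122). In those fits the lone library is assumed to vary like the other group. The cause of these differences was not tested. In the simulation, 14 of 81 genes changed 1.5-fold were recovered, which limits what 2 libraries a group can show for small changes. The changed genes were drawn from abundances reaching below the lowest member, so recovery at the members' own levels was not measured.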
